A study of Mus musculus with 36 samples.

Results

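*Six2*, *Six4*, *Six5*, *Eya1*, *Eya2*, *Eya3* and *Eya4* are the Six-family and Eya genes described here, together with *AC166821.1*, a noncoding gene that lies beside *Six2*. They were selected by Ensembl gene identifier from the 3 tables of normalized counts of the study and make up 8 of the 30125 genes listed in any of these tables. All 8 were listed in each table, and all 8 had a mean of at least 10 normalized counts in each, the minimum set for testing. *Six2* fell 42.3-fold and *Eya1* 38.8-fold in wild-type nephron progenitor cells between a low and a high dose of CHIR, *Six4* did not fall, and in high CHIR *AC166821.1* was higher after each of 3 ways of removing β-catenin or the Tcf/Lef factors.

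The study asked how the dose of canonical Wnt signalling acts on cultured mouse nephron progenitor cells (NPCs), and what β-catenin and the Tcf/Lef factors contribute. NPCs were enriched from pooled E16.5 kidneys of Swiss Webster or C57Bl/6 mice by magnetic depletion of other cell types, grown in nephron progenitor expansion medium, and given no CHIR (0 µM), low CHIR (1.25 µM) or high CHIR (5 µM). CHIR is a small-molecule inhibitor of GSK3β, the kinase that marks β-catenin for degradation. The bulk RNA-seq libraries numbered 36, in 3 tables that the authors normalized separately, so that levels are comparable only within a table.

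The wild-type table held 3 libraries at each of the 3 doses, from NPCs that were not transfected. The β-catenin table held 8 groups of 2 libraries in low or high CHIR. Of these, 4 groups came from Cas9-eGFP cells, which carry Cas9 and GFP constitutively, given guide RNAs against *Ctnnb1* (the β-catenin gene) or against GFP as control. The other 4 came from B-catenin_c_c cells, homozygous for a conditional *Ctnnb1* allele, with Cre mRNA or without Cre. The Tcf/Lef table held Cas9-eGFP cells given guides against *Tcf7*, *Tcf7l1*, *Tcf7l2* and *Lef1* together (QKO, 2 libraries in low CHIR and 3 in high CHIR) or against GFP (3 and 3), after a longer knockout period. Transfected cells were sorted by an mCherry reporter, all cells were first seeded in low CHIR, the sex of the embryos was not distinguished, and the strain of each library is not given in the sources used here. Nothing in the labels says which replicates came from separate litters, so p-values measure the spread between these libraries, which may be technical.

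Six-family proteins are homeodomain transcription factors that bind DNA together with Eya proteins, transcriptional coactivators that are also phosphatases and do not bind DNA themselves. In the developing kidney Six2 maintains the nephron progenitor pool and is lost as progenitors turn into nephron epithelium, while Eya1 is required for the progenitor lineage to form. *Six4* and *Six5* belong to other subgroups of that family, and *Eya2*, *Eya3* and *Eya4* are the other vertebrate Eya genes.

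In GRCm38, with the GENCODE vM21 annotation, *Six2* (ENSMUSG00000024134) lies on the minus strand at chr17:85684277-85688274, and *AC166821.1* (ENSMUSG00000117422), annotated as a lincRNA of 4 exons, lies on the plus strand at chr17:85693629-85713028. The pair are divergent, with 5354 bases between their starts. RefSeq places a longer lncRNA, CJ186046Rik, over *AC166821.1* on the same strand, at chr17:85688494-85727021, with its start 240 bases from the RefSeq start of *Six2*. In low CHIR, where neither was called, the means of *Six2* and *AC166821.1* pointed in opposite directions after 2 removals. They were 72.8% and 125% of control with Cre and 57.5% and 105% in QKO, with overlapping libraries. The stretch between the GENCODE start of *Six2* and the RefSeq start of CJ186046Rik is shown because *Six2* and *AC166821.1* changed in the same direction in every comparison in which both were called. It is chr17:85688275-85688493, written 5′ to 3′ on the strand of *Six2*, taken from RefSeq sequence of GRCm38, and 63.9% of its 219 bases are G or C, against a median of 52.7% over all 32851 RefSeq promoter windows.
Six2 to CJ186046Rik: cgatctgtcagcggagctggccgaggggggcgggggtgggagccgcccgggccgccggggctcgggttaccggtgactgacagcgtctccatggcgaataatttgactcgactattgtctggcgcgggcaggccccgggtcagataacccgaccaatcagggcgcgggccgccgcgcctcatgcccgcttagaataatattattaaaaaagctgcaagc

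Promoter windows from 250 bases before to 50 bases after each RefSeq start were searched on both strands for CTTTGAT, the core letters bound by Tcf/Lef factors, and for TCAGGTTTC, a Six-binding sequence of the MEF3 type. No window of *Six2*, *Six5*, *Eya3*, *Eya4* or CJ186046Rik held either, which says only that these letters are not in these windows. CTTTGAT was in 3.73% of all windows and TCAGGTTTC in 0.429%. A match to TCAGGTTTC stood in 1 of the 2 windows of *Six4*. Its surroundings are given here, at chr12:73113326-73113355, written on the minus strand on which *Six4* is transcribed, with the match in capitals as its reverse complement. The match begins 99 bases before the RefSeq start to which that window belongs. The match is a description and not a binding site.
Six4 match: gtggcctggggGAAACCTGAtcggccagat

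*Six4* (ENSMUSG00000034460) lies at chr12:73099609-73113456 on the minus strand, and *Six5* (ENSMUSG00000040841) at chr7:19094594-19098549 on the plus strand. *Eya1* (ENSMUSG00000025932) is at chr1:14168954-14310235 (minus strand), *Eya2* (ENSMUSG00000017897) at chr2:165595032-165771727 (plus strand), *Eya3* (ENSMUSG00000028886) at chr4:132638987-132724765 (plus strand) and *Eya4* (ENSMUSG00000010461) at chr10:23102963-23350786 (minus strand). No exon of the 8 genes overlaps an exon of another gene in this annotation.

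The libraries held 13089780 to 76071568 reads on genes, with a median of 18990328. Over the 7 nephron progenitor markers (*Cited1*, *Osr1*, *Meox1*, *Meox2*, *Tmem100*, *Crym*, *Itga8*), the summed level was 7315 to 13584 normalized counts in wild-type low CHIR and 686 to 1283 in wild-type high CHIR. All 7 markers were lower there. Summed markers of ureteric epithelium reached at most 287, of endothelium 63.6 and of blood 68.4. Stromal markers summed to between 148 and 25573, most of it *Col1a1*, while *Foxd1*, the defining marker of cortical stroma, reached at most 46.0. *Ctnnb1* had 1040 to 1652 normalized counts in the 4 *Ctnnb1* sgRNA libraries and 2521 to 3397 in the 4 GFP sgRNA libraries. With Cre it had 2254 to 3085 against 2207 to 3880 without, where a total count does not check the removal of part of a gene. In QKO high CHIR, *Lef1* had 255, 441 and 513 against 1504, 2743 and 1144 in control, and *Tcf7* had 110, 180 and 127 against 534, 535 and 268. In control cells *Lef1* was itself called higher in high than in low CHIR, and *Tcf7* had a mean of 446 against 194. Lower counts of *Lef1* and *Tcf7* in QKO high CHIR alone therefore do not check their removal. *Tcf7l1* (602, 539 and 736 against 612, 486 and 591) and *Tcf7l2* (999, 1616 and 1481 against 1263, 2233 and 1750) overlapped between QKO and control, so counts in high CHIR do not check these 2 targets. In low CHIR, *Tcf7* (66.2 and 97.7 against 141 to 220) and *Tcf7l1* (827 and 1286 against 1736 to 2225) lay below control without overlap. *Tcf7l2* overlapped there too (1575 and 1695 against 1622 to 1949). The study checked removal at the protein level by immunostaining. It reported a significant but partial loss of membrane β-catenin with both methods. With individual guides it reported a partial loss of each Tcf/Lef protein, smallest for Tcf7. The libraries are bulk RNA, in which fewer cells of a type and less RNA per cell cannot be told apart.

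A gene was called in a comparison if its adjusted p (limma on log2 of the normalized count plus 1, Benjamini-Hochberg over all genes tested) was under 0.05 and its log2 difference was at least 0.5 in size. Fold changes are 2 to the power of that log2 difference, and intervals are 95% intervals. In wild-type NPCs, 5 of the 8 genes were called lower in high than in low CHIR and none higher, against 10.4% of all genes called. The median log2 difference of the 8 was −1.48, against 0.01 over all genes tested. Between no and low CHIR 1 of 8 was called (4.97% of all genes), and between high and no CHIR 6 of 8 (23.4%), of which 5 were lower and 1 higher in high CHIR.

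*Six2*, the progenitor maintenance factor, had 2716, 2979 and 3072 normalized counts in wild-type low CHIR, 2923, 3545 and 3295 with no CHIR, and 60.5, 79.6 and 65.4 in high CHIR. The 3 high CHIR libraries lay far below all others, while the no CHIR and low CHIR libraries overlapped. The mean fell from 2922 ± 185 to 68.5 ± 9.89 (SD, n = 3 each), to 2.34% of the low CHIR level, a fall of 42.3-fold (interval 33.7 to 53.1, adjusted p = 3.18e-08). Between no and low CHIR the difference was 0.15 on the log2 scale (interval −0.18 to 0.48, adjusted p = 0.599). *Six2* was thus called between low and high CHIR and not between none and low.

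*AC166821.1* had 692, 740 and 880 normalized counts in low CHIR, 1118, 748 and 1248 with no CHIR, and 2.24, 1.40 and 0.935 in high CHIR. The high CHIR values stand for 2, 1 and 1 reads, 4 reads in all against 2041 in low CHIR. Scaled for library size this was 0.194% of the low CHIR level, with an exact interval of 0.0528 to 0.497% that covers counting error only. The fitted log2 difference, −8.28 with a pseudocount of 1 and −6.89 with 5, depends on the pseudocount and is no bound (adjusted p = 1.24e-07). Between no and low CHIR the log2 difference was 0.40 (interval −0.21 to 1.02, adjusted p = 0.429). The noncoding gene was thus close to its detection limit in high CHIR, while *Six2* was low but well detected.

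*Eya1*, the coactivator required for the lineage, had 3317, 3478 and 3904 normalized counts in low CHIR, 2690, 2466 and 2609 with no CHIR, and 84.0, 86.5 and 103 in high CHIR. It fell 38.8-fold from low to high CHIR (interval 31.5 to 47.7, adjusted p = 3.14e-08), to 2.56% of the low CHIR level. All no CHIR libraries lay below all low CHIR libraries, but the difference of −0.46 (interval −0.76 to −0.16) missed the threshold with an adjusted p of 0.0791. *Eya1* had its highest mean at the low dose.

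*Six4* took the other direction. In normalized counts it had 266, 291 and 229 without CHIR, then 552, 410 and 508 in low CHIR and 677, 635 and 585 in high CHIR, and the 3 groups did not overlap. From low to no CHIR it was 1.86-fold lower (log2 difference −0.90, interval −1.27 to −0.52, adjusted p = 0.0199), and in high CHIR it was 2.41-fold higher than with no CHIR (adjusted p = 0.000582). The step from low to high CHIR, a log2 difference of 0.38 (interval −0.00 to 0.75), was not called (adjusted p = 0.205). The call between no and low CHIR was lost without low CHIR replicate 1 (−0.80, adjusted p = 0.0815), low CHIR replicate 3 (−0.86, 0.0793) or no CHIR replicate 3 (−0.80, 0.11).

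*Six5*, a Six-family gene better known from muscle, had 286, 217 and 269 normalized counts without CHIR, 191, 164 and 160 in low CHIR and 84.0, 85.1 and 40.2 in high CHIR. The groups did not overlap, and *Six5* fell 2.57-fold from low to high CHIR (log2 difference −1.36, interval −2.02 to −0.70, adjusted p = 0.0157). That call was lost without low CHIR replicate 1 (−1.28, adjusted p = 0.0636) or replicate 3 (−1.41, 0.0533). *Eya4*, a coactivator known from hearing and heart muscle, had 1132, 1112 and 1069 with no CHIR, 817, 689 and 914 in low CHIR and 316, 254 and 233 in high CHIR, a fall of 3.01-fold from low to high CHIR (adjusted p = 0.000245). Both genes thus had their highest level with no CHIR and their lowest in high CHIR, but neither was called between no and low CHIR.

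*Eya3*, a broadly expressed Eya gene, had 383, 293 and 455 normalized counts without CHIR, 470, 385 and 454 in low CHIR and 483, 352 and 409 in high CHIR, with all groups overlapping and an interval of −0.53 to 0.37 for the high against low log2 difference. *Eya2*, a coactivator studied mainly in muscle and sense organs, had 55.2, 23.7 and 28.7 in low CHIR, against 91.3, 71.7 and 104 with no CHIR and 76.2, 48.9 and 55.1 in high CHIR. Neither dose contrast of *Eya2* with low CHIR was called (1.36, adjusted p = 0.059 for no CHIR, and 0.80, adjusted p = 0.207 for high CHIR).

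**Figure D1:**
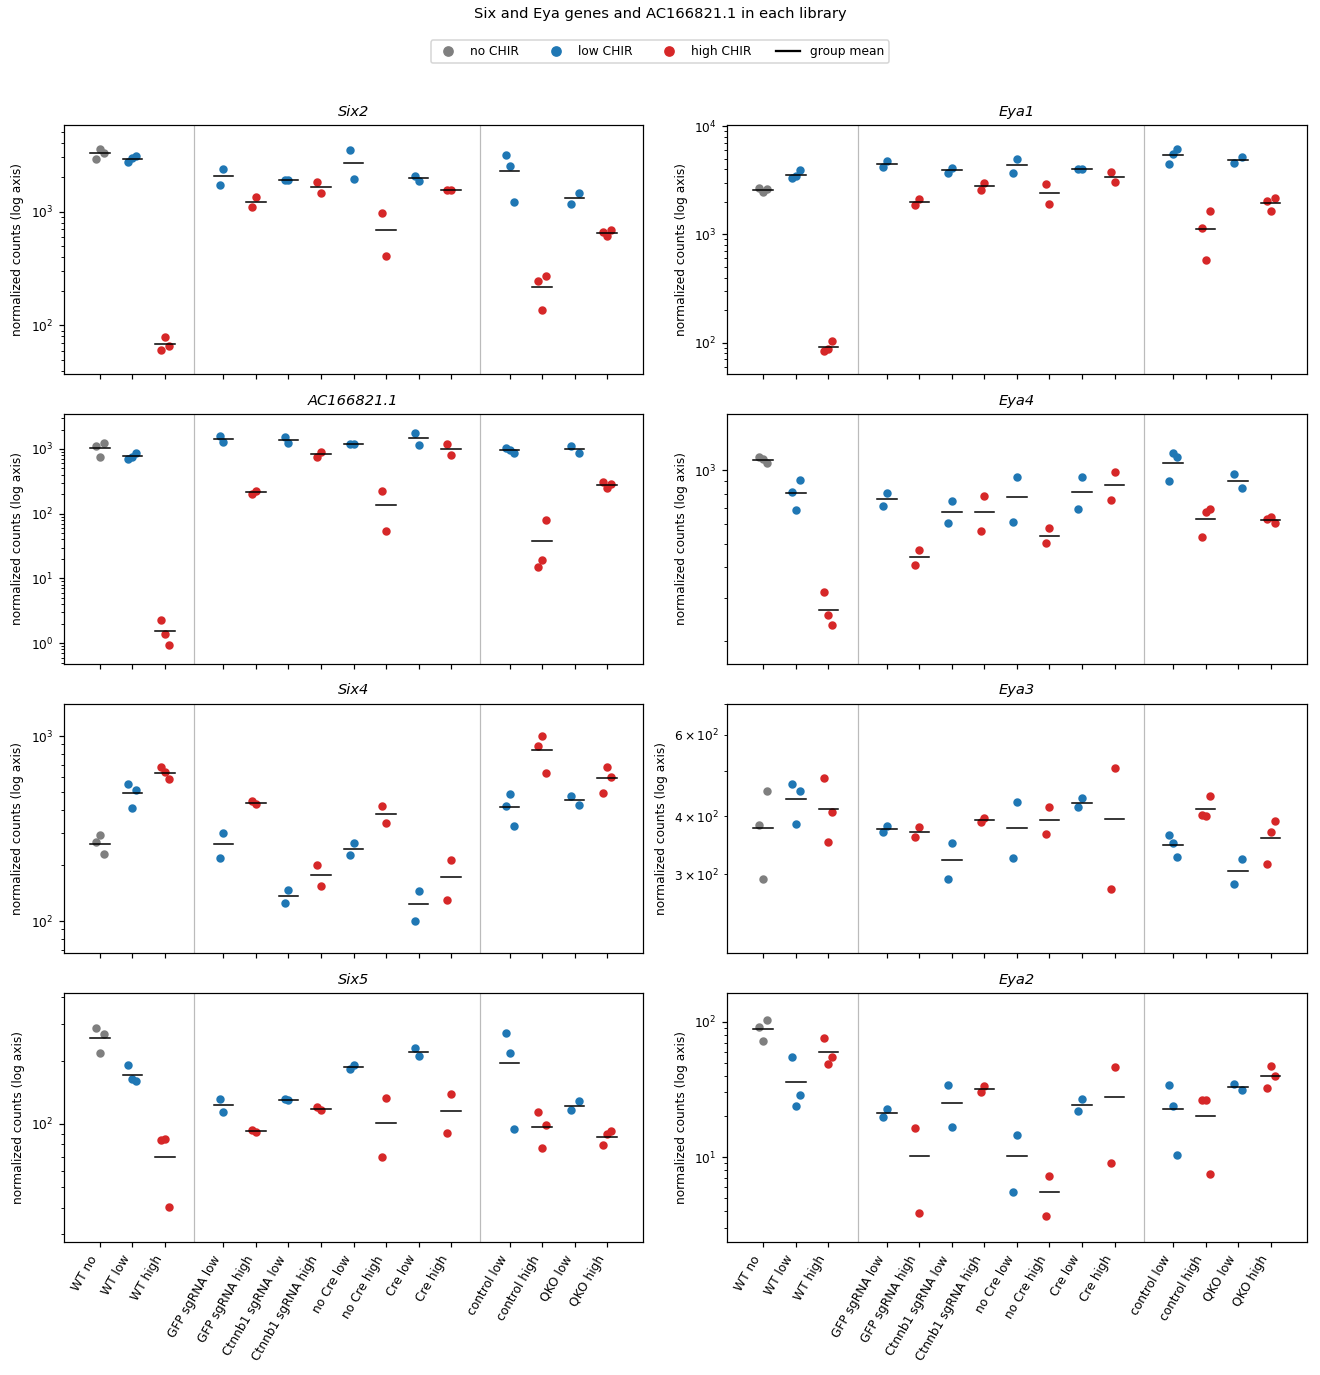
Normalized counts (log axis) of each of the 8 genes in every library, one panel per gene, with libraries grouped by genotype and treatment along the horizontal axis and coloured by CHIR dose. Each dot is 1 library and each line a group mean, and the 3 tables were normalized separately. The wild-type high CHIR dots of *Six2* sit between 60.5 and 79.6 while those of *Six4* sit between 585 and 677.

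In the β-catenin table same-numbered libraries were taken as paired within each removal method, and values with the number as a block within the method are given where they change a call. In low CHIR, none of the 8 genes was called after removal of β-catenin without this block. With Cas9 0 of 8 were called (0.0536% of all genes), with Cre 0 of 8 (0.328%) and in the mean of both removals 0 of 8 (0.62%). *Six4* came nearest. It had 125 and 147 normalized counts with *Ctnnb1* sgRNA against 220 and 301 with GFP sgRNA, and 100 and 145 with Cre against 228 and 265 without, so that every library with β-catenin removed was below every control. The mean of the removals was −0.97 on the log2 scale (interval −1.41 to −0.52, adjusted p = 0.0555), and was called with the block (−0.97, adjusted p = 0.0107). The block also moved all genes called from 9 to 21 with Cas9, from 55 to 513 with Cre and from 104 to 510 in the mean.

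*Six2* in low CHIR had 1888 and 1898 with *Ctnnb1* sgRNA against 1731 and 2373 with GFP sgRNA, and 2080 and 1849 with Cre against 3454 and 1941 without. These groups overlapped, and the mean removal difference was −0.25 (interval −0.77 to 0.27). *Eya1* had 3682 and 4149 against 4212 and 4744, and 4015 and 3988 against 3732 and 5013, with a mean removal difference of −0.15 (interval −0.48 to 0.17). *AC166821.1* had 1517 and 1246 against 1563 and 1274, and 1770 and 1168 against 1175 and 1182, and overlapped in both. Intervals of this width leave room for modest changes in either direction.

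In high CHIR the same removals were called for a part of the list. With Cas9 2 of 8 genes were called (5.09% of all genes), *AC166821.1* higher and *Six4* lower. With Cre 3 of 8 were called (8.65%), *Six2* and *AC166821.1* higher and *Six4* lower. In the mean of both removals 5 of 8 were called (15.2%), *Six2*, *AC166821.1*, *Eya2* and *Eya4* higher and *Six4* lower. With the block all genes called went from 854 to 2133 with Cas9 and from 1452 to 2639 with Cre, and *Eya4* was called with each (0.60, adjusted p = 0.0223 and 0.68, 0.00743).

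*AC166821.1* had 760 and 893 normalized counts with *Ctnnb1* sgRNA in high CHIR against 202 and 225 with GFP sgRNA, 3.86-fold higher (log2 difference 1.95, interval 0.97 to 2.92, adjusted p = 0.0257). With Cre it had 1193 and 800 against 221 and 53.9 without, 8.86-fold higher (3.15, interval 2.17 to 4.12, adjusted p = 0.000609). The libraries with β-catenin removed were above the controls in both methods. The Cas9 call was lost without any 1 of its 4 libraries, *Ctnnb1* sgRNA replicates 1 and 2 and GFP sgRNA replicates 1 and 2, with differences of 1.83 to 2.06 and adjusted p of 0.0929 to 0.203, while the Cre call was kept in each such fit, at 4.15 without no Cre replicate 1 and 2.14 without replicate 2.

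*Six2* in high CHIR had 1556 and 1558 with Cre against 977 and 407 without, 2.47-fold higher (1.30, interval 0.57 to 2.04, adjusted p = 0.0294). With *Ctnnb1* sgRNA it had 1833 and 1473 against 1097 and 1336 with GFP sgRNA, where the groups did not overlap but the difference of 0.44 was not called (interval −0.30 to 1.18, adjusted p = 0.523). The Cre call rested on single libraries. It stood at 1.93 without no Cre replicate 1, and was lost without no Cre replicate 2, the library at 407 (0.67, adjusted p = 0.265), without Cre replicate 1 (1.30, 0.107) or replicate 2 (1.30, 0.113), and when only the 4 libraries compared were fitted (1.30, 0.104). For the mean of both removals *Six2* was 0.87 higher (interval 0.35 to 1.39, adjusted p = 0.0245), a call lost without any 1 of the Cas9 or Cre high CHIR libraries other than *Ctnnb1* sgRNA replicate 2 and no Cre replicate 1 (0.56 to 0.94, adjusted p 0.0507 to 0.0857).

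*Six4* in high CHIR had 200 and 154 with *Ctnnb1* sgRNA against 444 and 429 with GFP sgRNA, 2.48-fold lower (adjusted p = 0.0201), and 130 and 214 with Cre against 421 and 337 without, 2.25-fold lower (adjusted p = 0.022). No library with β-catenin removed reached a control library. The Cas9 call was lost without any 1 of its 4 libraries (−1.50 to −1.12, adjusted p 0.0534 to 0.208). The Cre call was lost without Cre replicate 1 (−0.81, 0.18), no Cre replicate 1 (−1.01, 0.159) or no Cre replicate 2 (−1.33, 0.0523), and with only the 4 libraries fitted (−1.17, 0.0839). The mean of both removals, a log2 difference of −1.24 (interval −1.68 to −0.80, adjusted p = 0.00097), kept its call without each library in turn. *Six4* was thus the 1 gene of the list called lower without β-catenin.

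*Eya1* in high CHIR had 2577 and 3007 with *Ctnnb1* sgRNA against 1871 and 2140 with GFP sgRNA, and 3777 and 3048 with Cre against 2934 and 1902 without. The libraries did not overlap in either method, and the mean removal difference of 0.50 (interval 0.17 to 0.82, adjusted p = 0.0364) passed the p threshold and lay just under the size threshold. It was called without Cre replicate 2 (0.58, 0.0374) or no Cre replicate 1 (0.66, 0.00992). *Eya4* had 564 and 787 against 410 and 472, and 757 and 985 against 501 and 578, with a mean difference of 0.64 (adjusted p = 0.0236). Its call was lost without *Ctnnb1* sgRNA replicate 2 (0.52, 0.109), Cre replicate 2 (0.55, 0.0821), no Cre replicate 1 (0.59, 0.075) or GFP sgRNA replicate 1 (0.59, 0.0819) or 2 (0.69, 0.0513). *Eya2* had 30.4 and 33.4 against 16.5 and 3.83, and 9.09 and 46.1 against 3.68 and 7.26, a mean difference of 1.82 (adjusted p = 0.0377) that missed the threshold without any 1 of 6 of the 8 libraries, all but GFP sgRNA replicate 1 and Cre replicate 1 (1.27 to 2.03, adjusted p 0.0507 to 0.169). *Eya3* (interval −0.37 to 0.40) and *Six5* were not called.

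The 2 removal methods were also compared with each other. No gene was called for the difference between the Cas9 and the Cre effect in high CHIR (0% of 16780 genes by limma, with 560 at an unadjusted p under 0.05, 0 by edgeR, 21 by DESeq2 and 20 with the block). The difference, Cas9 minus Cre, was −0.86 for *Six2* (interval −1.90 to 0.18) and −1.20 for *AC166821.1* (interval −2.58 to 0.18). These intervals do not show that the methods acted alike. Other values moved with the removals in high CHIR. Of the 7 nephron progenitor markers, 6 were higher with Cas9 and 6 with Cre (*Itga8* was lower with Cre), and of 5 induced nephron markers tested 4 and 5 were lower. Stromal markers summed to 14364 and 8628 with *Ctnnb1* sgRNA against 10590 and 3142 with GFP sgRNA, and to 4811 and 9829 with Cre against 2815 and 4180 without, higher after removal at each replicate number. None of 4 stromal markers tested was called (list medians of 0.76 and 1.10). The part of these markers in the Six-family and Eya values was not tested.

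The response to CHIR within each genotype used the same libraries again, so it shares its control libraries with the comparisons above. With GFP sgRNA, 2 of 8 genes were called lower in high CHIR than in low (7.51% of all genes), and without Cre 3 of 8 (8.05%). *Six4* was not called in either, but stood at 168% of its low CHIR level with GFP sgRNA and 154% without Cre, without overlap. With the block all genes called went from 1260 to 2562 and from 1350 to 2661, and *Eya4* was called lower with GFP sgRNA (−0.79, adjusted p = 0.0033). *AC166821.1* fell in both, 6.60-fold with GFP sgRNA (adjusted p = 0.00205) and 10.7-fold without Cre (adjusted p = 0.000304), where the log2 difference of −3.42 was −4.42 without no Cre high CHIR replicate 1 and −2.41 without replicate 2. *Eya1* fell 2.23-fold with GFP sgRNA (log2 difference −1.16, interval −1.62 to −0.70, adjusted p = 0.00414). Without Cre its difference was −0.87 (adjusted p = 0.0215), which was lost without no Cre high CHIR replicate 2 (−0.56, 0.196) or low CHIR replicate 2 (−0.66, 0.11) and with only the own groups fitted (0.104).

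*Six2* fell 4.10-fold without Cre (log2 difference −2.04, adjusted p = 0.00192), to 25.6% of its low CHIR level. Without no Cre high CHIR replicate 1 the difference was −2.67, and without replicate 2 it was −1.41. With GFP sgRNA it stood at 59.3% of the low CHIR level, a difference of −0.74 that was not called (interval −1.48 to −0.01, adjusted p = 0.234). In wild-type cells the corresponding level was 2.34%, in a separately normalized table and in cells that had not been transfected. *Six5* without Cre had 183 and 190 in low CHIR and 70.0 and 133 in high CHIR, and was not called with all libraries (−0.95, adjusted p = 0.0843), but was without no Cre high CHIR replicate 2 (−1.40, 0.0245) and with the block (−0.95, 0.0289).

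After β-catenin removal no gene of the list was called between high and low CHIR, with *Ctnnb1* sgRNA (0 of 8, against 0.763% of all genes) or with Cre (0 of 8, 0.292%). *Six2* stood at 87.3% and 79.3% of its low CHIR level, *Eya1* at 71.3% and 85.3%, and *AC166821.1* at 59.8% and 67.9%. *Six4* stood at 130% with *Ctnnb1* sgRNA, without overlap, and at 140% with Cre, where the libraries overlapped. The log2 intervals were −0.94 to 0.53 and −1.07 to 0.40 for *Six2*, and −1.72 to 0.24 and −1.53 to 0.42 for *AC166821.1*. Against control cells in low CHIR, the removed cells in high CHIR also gave 0 of 8 calls with *Ctnnb1* sgRNA (0.638%) and 0 of 8 with Cre (0.936%), with *Six2* differences of −0.30 (interval −1.04 to 0.43) and −0.73 (interval −1.47 to 0.00). The block called none of the 8 in these 4 comparisons, and moved all genes called from 128 to 447, 49 to 128, 107 to 561 and 157 to 767.

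Whether the CHIR response itself differed between removed and control cells was tested as an interaction, and 0 of 8 genes were called for Cas9 (0.518% of all genes) or Cre (0.995%). The estimates for *AC166821.1* were 1.98 (interval 0.60 to 3.37, adjusted p = 0.413) and 2.86 (interval 1.48 to 4.24, adjusted p = 0.0584), and for *Six2* 0.54 (interval −0.50 to 1.58) and 1.70 (interval 0.66 to 2.74, adjusted p = 0.166). In the Cre cells, leaving out no Cre high CHIR replicate 1 gave a call for *Six2* (2.33, adjusted p = 0.0158) and *AC166821.1* (3.87, 0.00049), and leaving out its replicate 2 gave one for *AC166821.1* (1.85, 0.0437). With the block, *Six2* (1.70, adjusted p = 0.0166) and *AC166821.1* (2.86, 0.00279) were called for Cre and *AC166821.1* for Cas9 (1.98, 0.0496), and DESeq2 without the block called *Six2* (1.61, 0.0462) and *AC166821.1* (2.53, 0.00211) for Cre. Whether these differences passed the test thus depended on the fit. All genes called went from 87 to 235 for Cas9 and from 167 to 526 for Cre with the block.

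**Figure D2:**
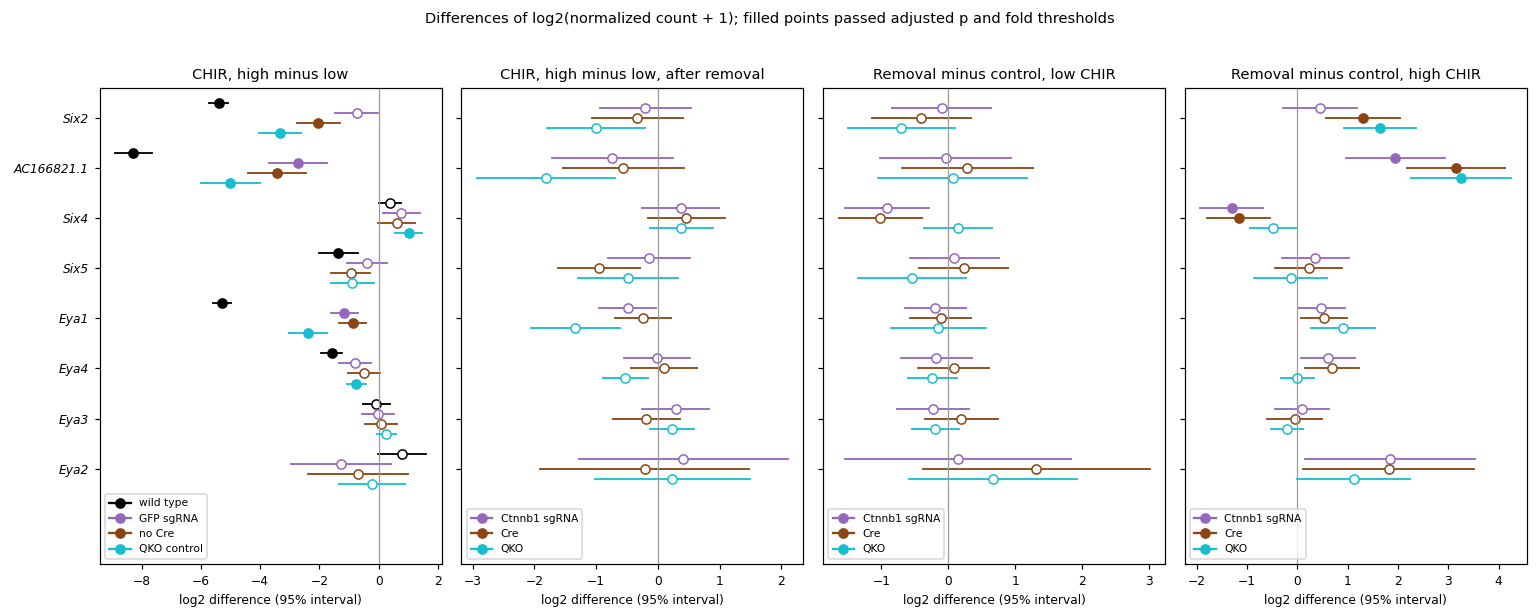
Log2 differences (horizontal axis, with 95% intervals) of the 8 genes in 4 panels, for high minus low CHIR in control cells, high minus low CHIR after removal of β-catenin or the Tcf/Lef factors, and removal minus control in low and in high CHIR. Filled points passed both thresholds. *Six2* in high minus low CHIR ran from −5.40 in wild-type cells to −0.20 with *Ctnnb1* sgRNA.

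In the Tcf/Lef table same-numbered libraries were taken as paired, so values with that number as a blocking term are given where they change a call. In control cells of this table, 5 of 8 genes were called between high and low CHIR (14.9% of all genes). *Six2* had 246, 137 and 271 normalized counts in control high CHIR against 3148, 2502 and 1206 in control low CHIR, a fall of 10.1-fold (log2 difference −3.34, interval −4.05 to −2.62, adjusted p = 4.34e-05). *AC166821.1* had 14.8, 19.2 and 79.7 against 1033, 954 and 858 (32.0-fold lower, adjusted p = 2.51e-05), and *Eya1* had 1146, 586 and 1646 against 4488, 5579 and 6224 (5.20-fold lower, adjusted p = 0.000221). The high CHIR libraries of all 3 genes lay below the low CHIR libraries. Without control high CHIR replicate 3, the library at 79.7, the log2 difference of *AC166821.1* was −5.73 in place of −5.00.

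*Eya4* in the same cells had 532, 672 and 693 against 904, 1172 and 1131, a difference of −0.76 (adjusted p = 0.00486). *Six4* had 880, 1001 and 628 against 419, 489 and 325, and rose 2.02-fold (interval of the log2 difference 0.56 to 1.47, adjusted p = 0.00615). The rise of *Six4* stood beside the fall of *Six2* in the same 6 libraries. *Six5* had 114, 76.9 and 98.9 against 272, 218 and 95.1 and was not called by limma with all libraries (−0.90, adjusted p = 0.0953). It was called without control low CHIR replicate 3 (−1.34, 0.00249) and by DESeq2 (−1.01, 0.0236).

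In low CHIR, 0 of 8 genes were called between QKO and control (0.0063% of all genes). *Six2* had 1162 and 1464 in QKO against 3148, 2502 and 1206, which overlapped, with a difference of −0.70 (interval −1.50 to 0.10). *Six4* had 475 and 424 against 419, 489 and 325. The blocked fit called none of the 8 either, with 16 genes called in all against 1 without the block.

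In high CHIR, 2 of 8 genes were called between QKO and control (2.54% of all genes, 404 genes without and 1181 with the replicate block). *Six2* had 665, 607 and 685 normalized counts in QKO against 246, 137 and 271, with no overlap, and was 3.11-fold higher (log2 difference 1.64, interval 0.92 to 2.35, adjusted p = 0.0226). *AC166821.1* had 314, 248 and 283 against 14.8, 19.2 and 79.7, again with no overlap, and was 9.52-fold higher (3.25, interval 2.25 to 4.25, adjusted p = 0.00303). The call of *Six2* was lost without QKO replicate 1 (1.62, adjusted p = 0.0824), 2 (1.69, 0.0817) or 3 (1.60, 0.0778), or without control replicate 2, the library at 137 (1.33, 0.103). *AC166821.1* stood at 3.98 without control replicate 3.

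*Eya1* had 2021, 1632 and 2174 in QKO high CHIR against 1146, 586 and 1646, which overlapped by 1 library on each side. Its difference of 0.90 (interval 0.26 to 1.54) was not called without the block (adjusted p = 0.16), was called in the fit with the replicate block (0.90, adjusted p = 0.0283), and was called without control replicate 3 (1.23, 0.0281). *Six4* had 493, 679 and 601 against 880, 1001 and 628, which overlapped, with a difference of −0.49 (interval −0.94 to −0.03, adjusted p = 0.313). *Eya4* had 628, 641 and 610 against 532, 672 and 693, with an interval of −0.33 to 0.32. Within replicate numbers the summed stromal markers differed widely, with 2552 to 12136 in replicate 1, 460 to 1791 in replicate 2 and 148 to 673 in replicate 3, and were higher in QKO than in control high CHIR at each number. Of the 7 progenitor markers 6 were higher in QKO high CHIR. The part of either in the *Six2* and *AC166821.1* values was not tested.

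Within QKO cells 0 of 8 genes were called between high and low CHIR (2.54% of all genes, 403 without and 952 with the block). *Six2* stood at 49.7%, *AC166821.1* at 28.3% and *Eya1* at 39.9% of their low CHIR levels, where the control cells had 9.53%, 4.0% and 20.7%. For *Eya1* the difference of −1.33 (adjusted p = 0.0563) was called with the replicate block (−1.17, adjusted p = 0.0192), and also by edgeR (−1.33, 0.0446) and DESeq2 (−1.32, 0.00187). *AC166821.1* (−1.81 without the block, adjusted p = 0.097) was called by edgeR (−1.83, 0.0496) and DESeq2 (−1.82, 0.00274), and with only the QKO libraries fitted so were *AC166821.1* (−1.81, 0.0101) and *Six2* (−1.0, 0.0231). The CHIR response differed between QKO and control by 2.34 for *Six2* (interval 1.26 to 3.41, adjusted p = 0.131) and by 3.19 for *AC166821.1* (interval 1.69 to 4.69, adjusted p = 0.142). This gave 0 of 8 calls (0.126% of all genes, 20 without and 136 with the block). With the replicate block both were called (2.41, adjusted p = 0.0473, and 3.31, adjusted p = 0.0472). So was *Six2* without control low CHIR replicate 3 (2.74, 0.0125) and *AC166821.1* without control high CHIR replicate 3 (3.91, 0.000258).

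QKO cells in high CHIR were also set against control cells in low CHIR, where 4 of 8 genes were called lower (6.81% of all genes, 1082 without and 2452 with the block). The differences were −1.70 for *Six2* (adjusted p = 0.00875), −1.75 for *AC166821.1* (0.0407), −1.48 for *Eya1* (0.00994) and −0.76 for *Eya4* (0.00958). *Six2* in QKO high CHIR was thus above the control in high CHIR and below the control in low CHIR. With the block *Six5* (−1.03, adjusted p = 0.0473) and *Six4* (0.53, adjusted p = 0.035) were called too. Single libraries decided some of these calls. *Eya1* was lost without QKO replicate 2 (−1.36, 0.0575), *Eya4* without control replicate 2 (−0.69, 0.057) and *AC166821.1* without any 1 of the libraries other than control replicate 3 (−1.83 to −1.66, adjusted p 0.0759 to 0.144), while *Six5* was called without control replicate 3 (−1.48, 0.00296).

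Levels of different genes were set side by side per kb of exon, as a description. In wild-type low CHIR *Six2* had 1379 normalized counts per kb, *Eya1* 457, *AC166821.1* 420, *Eya4* 85.7, *Eya3* 77.3, *Six5* 57.1, *Six4* 45.1 and *Eya2* 12.1. The levels of *Eya1* and *AC166821.1* were close, as were those of *Eya4* and *Eya3*, and these differences between genes of the same libraries were not tested. Of the summed Six-family level per kb over *Six2*, *Six4* and *Six5*, *Six2* made up 93.1 ± 1.09% in low CHIR and 28.6 ± 3.98% in high CHIR, where *Six4* made up 51.5 ± 4.03% and *Six5* 20.0 ± 5.51% (SD, n = 3). Among *Six2*, *Six4* and *Six5*, the highest per kb in wild-type cells was therefore *Six2* at the lower doses and *Six4* in high CHIR. In control cells of the other tables *Six2* kept the largest mean share in high CHIR. It was 88.9% with GFP sgRNA, 80.0% without Cre and 47.7% in the Tcf/Lef control.

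*Eya1* made up 72.3 ± 2.85% of the summed Eya level per kb in wild-type low CHIR and 8.87 ± 1.73% in high CHIR, where *Eya3* held 54.8 ± 1.45%. The summed Six-family level itself went from 1481 ± 78.3 to 114 ± 13.8 per kb and the summed Eya level from 632 ± 48.8 to 134 ± 19.8, so the larger shares of *Six4* and *Eya3* are shares of a smaller sum. In control high CHIR of the Tcf/Lef table *Six2* held 47.7 ± 11.7% and *Six4* 37.2 ± 12.3% of the Six-family level, against 78.7 ± 2.90% and 13.9 ± 2.40% in QKO high CHIR. *Six4* held 6.28% with GFP sgRNA and 1.95% with *Ctnnb1* sgRNA in high CHIR, and 9.52% without and 2.0% with Cre (means of 2 libraries).

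**Figure D3:**
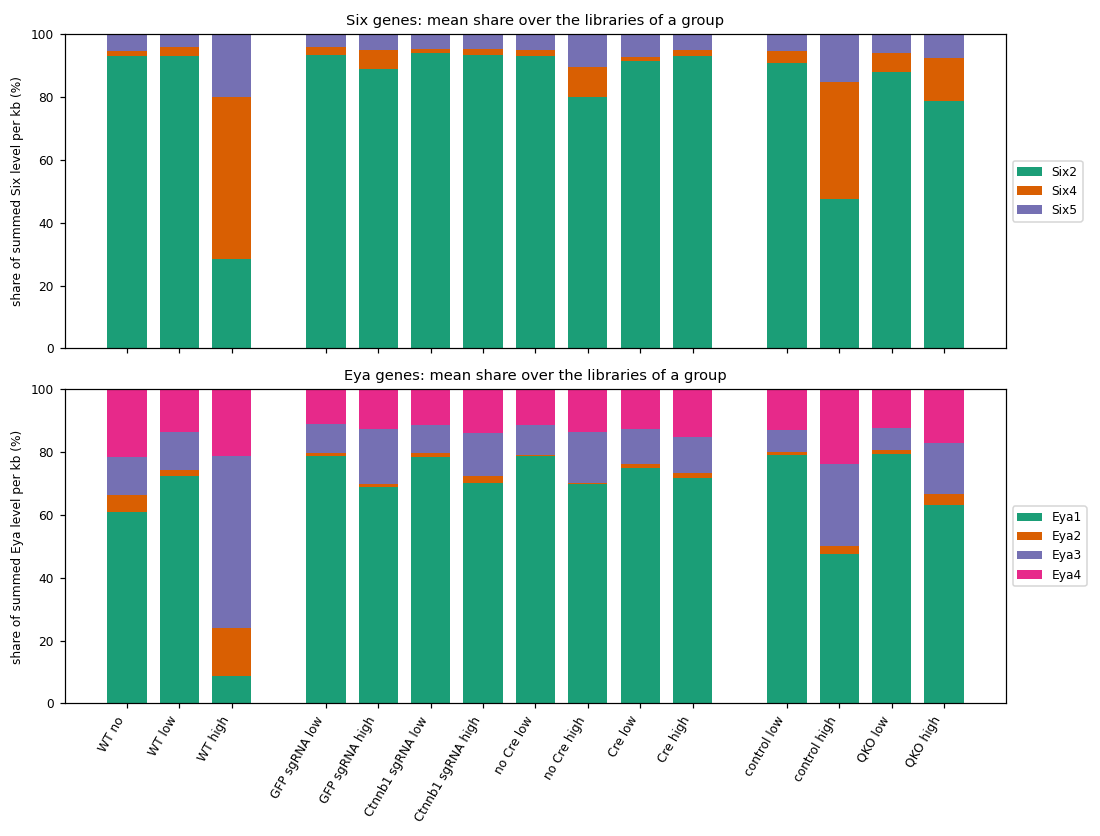
Stacked bars of the mean share (percent, from 0 to 100) of each gene in the summed Six-family level (top) and the summed Eya level (bottom) per kb of exon, one bar per group. In wild-type high CHIR the *Six2* part of the bar is 28.6% and the *Eya1* part 8.87%, and the bars do not show that the sums differ between groups.

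*AC166821.1* and *Six2* did not keep a constant ratio. The counts of *AC166821.1* were 25.5, 24.8 and 28.7% of those of *Six2* in wild-type low CHIR, 38.3, 21.1 and 37.9% with no CHIR, and 3.70, 1.75 and 1.43% in high CHIR. The log2 of the ratio was 3.64 lower in high than in low CHIR, with no overlap (log2 difference −3.64, two-sided exact permutation p = 0.1, the smallest that 3 libraries against 3 allow). In the Tcf/Lef table the ratio was 47.2, 40.9 and 41.4% in QKO high CHIR against 6.04, 14.1 and 29.4% in control high CHIR (log2 difference 1.67, two-sided exact permutation p = 0.1, again the smallest possible).

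In the β-catenin table the ratio in high CHIR was 41.5 and 60.6% with *Ctnnb1* sgRNA against 18.4 and 16.8% with GFP sgRNA, and 76.7 and 51.4% with Cre against 22.6 and 13.3% without. The groups did not overlap, and the two-sided exact permutation p of 0.333 in each is the smallest that 2 libraries against 2 allow. The noncoding gene thus fell by more than *Six2* in high CHIR and stood higher relative to *Six2* after removal, in the counts of these libraries. These ratios were 4 of 18 compared, and none of the 18 could reach 0.05 with this number of libraries.

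**Figure D4:**
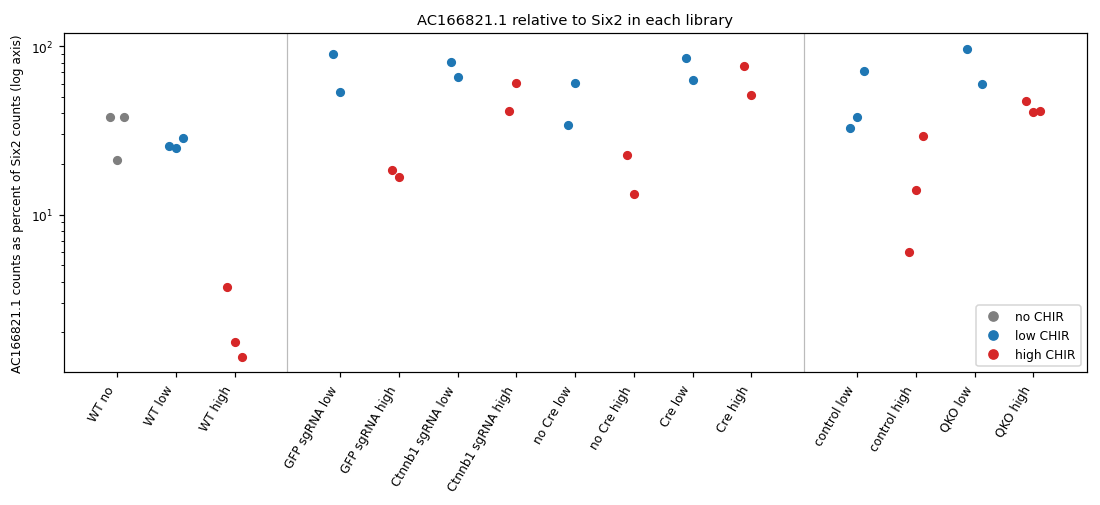
*AC166821.1* as a percent of the *Six2* normalized count (log axis) in every library, grouped by genotype and treatment and coloured by CHIR dose. Each dot is 1 library. Wild-type high CHIR is lowest, at 1.43 to 3.70%, and QKO high CHIR lies at 40.9 to 47.2%, above control high CHIR at 6.04 to 29.4%.

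Likeness of pattern was measured by the mean, over the 3 tables, of the Pearson correlation of log2 levels across the 9, 16 and 11 libraries of a table, over 14951 genes tested in all 3. It is a description, since the libraries share groups and tables. The 3 genes outside the list most like *Six2* were *Gm29418* (0.947), *Gas1* (0.941), a membrane-anchored coreceptor of the hedgehog pathway, and *Tbc1d4* (0.938), a regulator of glucose transporter traffic. *AC166821.1* came next (0.933), *Eya1* had 0.876 and *Six4* −0.671. Those most like *Eya1* were *Nqo2* (0.941), a quinone reductase, *Zadh2* (0.938) and *Cped1* (0.935), with *AC166821.1* at 0.925 and *Eya4* at 0.828. For *AC166821.1* they were *Nell1* (0.974), *Syt12* (0.964) and *Etv1* (0.963). *Six2* ranked only 26 and *Eya1* 37 in likeness to *AC166821.1* among the 14951 genes.

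Other genes of the Pax-Six-Eya-Dach network and regulators of *Six2* formed a list of 14 (among them *Six3*, *Six6*, *Pax2*, *Pax8*, *Dach1*, *Dach2*, *Hoxa11*, *Hoxc11*, *Hoxd11*, *Sall1*, *Osr1*, *Wt1*, *Gdnf*), of which *Osr1* and *Pax8* also stand in the marker lists. *Six3* was listed only in the Tcf/Lef table (group means of at most 4.33 normalized counts) and *Six6* only in the wild-type table (at most 3.43). In wild-type high against low CHIR 1 of 12 tested rose and 3 fell (10.4% of all genes called, median −0.56 against 0.01 over all genes). *Dach1*, a corepressor that acts with Six-family proteins, rose (1.56), while *Wt1* (−4.11), *Hoxa11* (−0.72) and *Osr1* fell, *Osr1* being at 0 in each of the 3 high CHIR libraries against a mean of 910 ± 413 in low CHIR. From low to no CHIR, where 4.97% of all genes were called, 1 of 12 was higher (*Osr1*, 2.29) and 3 were lower (*Dach1* −2.08, *Dach2* −1.79, *Hoxa11* −0.79). *Dach1* was thus ordered by dose as *Six4* was.

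After β-catenin removal in high CHIR, *Osr1* was higher (3.77 with Cas9, 4.44 with Cre) and *Dach1* (−2.0 and −2.26), *Pax2* (−1.87 and −2.55) and *Sall1* (−0.97 and −1.51) were lower with both methods, joined by *Pax8* with Cre (−1.30). That made 1 higher and 3 lower of 11 tested with Cas9 (5.09% of all genes called) and 1 higher and 4 lower with Cre (8.65%), with list medians of −0.44 and −1.16 against −0.00 and −0.02 over all genes. In low CHIR none was called with Cas9 or Cre, and in their mean *Pax2* alone was (−1.15, adjusted p = 0.02). *Pax2* encodes a paired domain factor of the progenitor and early nephron. In QKO against control *Osr1* in high CHIR was the 1 gene called of 12 tested (2.18, adjusted p = 0.00288, 2.54% of all genes called), and none was in low CHIR.

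Between high and low CHIR, *Dach1* was called higher with GFP sgRNA (3.74), without Cre (3.49), with *Ctnnb1* sgRNA (2.93), with Cre (1.91), in control (3.41) and in QKO (2.45). *Pax2* was called with GFP sgRNA (2.97), without Cre (2.37), with *Ctnnb1* sgRNA (1.97) and in control (2.06). *Osr1* was lower with GFP sgRNA (−3.51), without Cre (−3.92), in control (−4.06) and in QKO (−1.84). *Dach1* was therefore called between doses after β-catenin removal, where no Six-family or Eya gene was by the same fit. The difference between these genes was not tested.

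Genes next to the members in the genome (among them *Six3*, *Six3os1*, *Camkmt*, *Prepl*, *Srbd1*, *Six6*, *Mnat1*, *Trmt5*, *Ppm1a*, *Dmpk* and *Dmwd*) gave 0 of 8 or 9 calls in every comparison of the β-catenin and Tcf/Lef tables. Of all genes, 0% to 15.2% were called in these comparisons, so a lack of calls among so few genes does not set the neighbours apart. In wild-type cells 1 of 9 was lower in high CHIR than in low, against 10.4% of all genes called (*Srbd1*, near *Six2*, −0.99, adjusted p = 0.00521, list median −0.38 against 0.01), none was called between no and low CHIR, and 3 of 9 were lower in high than with no CHIR, where 23.4% of all genes were called in either direction (*Srbd1* −0.71, *Dmpk* −1.23, *Ppm1a* −0.70).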

How the data were processed

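RNA was profiled from 36 mouse NPC libraries. Per the labels and the study's methods, the authors made cDNA with SMARTer Ultra Low chemistry, which does not mark strand, sequenced paired ends on a NovaSeq, and aligned reads with STAR to combined mouse GRCm38 and human GRCh38 genomes. They counted uniquely aligned reads per gene with featureCounts and normalized each of 3 tables with DESeq2. The deposited values are a signal per gene, gene counts divided by size factors, and genes under 10 reads in total are not listed. The 8 files of comparisons also hold the authors' log2 fold changes, p-values and group means, which were not used, and 50 columns of per-sample values without a matching sample were left out.

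Every value came out as a whole number of reads (100.0% in each library, tolerance 0.1 reads). In 3 libraries 1 read is worth within about 1% of 1 normalized count. Limma 3.58.1 in R 4.3.3, with a trend in the variance, was run on log2(normalized count + 1) over all libraries of a table, with group as the only term, on genes with a mean of at least 10 (17411 wild-type, 16780 β-catenin and 15878 Tcf/Lef genes). On the recovered reads, edgeR 4.0.16 called 1845 and DESeq2 1.42.0 called 2610 genes in wild-type high against low CHIR, against 1808 by limma. The scripts were tested on simulated data.

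Alternatives were pseudocounts of 0.5 and 5, no filter on low values, TMM rescaling, edgeR and DESeq2, a replicate block, only the own groups, a log2 threshold of 1, and leaving out each library in turn. Deviations from group means of same-numbered Tcf/Lef libraries correlated at 0.214 to 0.637, so these numbers were taken to pair the libraries. The labels do not say what a replicate number stands for. In the β-catenin table they correlated at 0.116 to 0.491 within the Cas9 groups and 0.334 to 0.518 within the conditional-allele groups, and at −0.265 to 0.278 across methods, so the numbers were taken to pair libraries within a method, and a block within the method was added after the data were seen. The Cas9 range overlaps the range across methods and that of the wild-type libraries. The pairing is therefore an assumption, and calls made only with the block rest on it. Wild-type libraries correlated at −0.0156 to 0.272 and were not taken as paired. The members, the lists and the comparisons were chosen with earlier results of these data known. Counts of calls cover all 8 genes in every comparison, while values are given for only a part of them in some. For *Six2*, *Eya1* and *AC166821.1* the 3 other genes with the highest mean correlation over the tables are named. The network list, the neighbour list and the lists of nephron progenitor, induced nephron, stroma, ureteric epithelium, endothelium and blood markers are described by counts. Genome positions are 1-based in GRCm38 with GENCODE vM21, and exon lengths were taken from the same annotation. No promoter window of *Eya1* or *Eya2* was used here. One gene of the network and neighbour lists is not reported here by name.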

Additional observations from a re-analysis of the deposited data

Results flagged for a closer look

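The CHIR response of *Six2* and of *AC166821.1* differed between QKO and control cells in the test of the difference itself once the replicate number was a block. High minus low CHIR was −1.0 in QKO and −3.34 in control for *Six2*, and −1.81 and −5.00 for *AC166821.1*. With the block the difference between these responses was 2.41 for *Six2* (limma, adjusted p = 0.0473) and 3.31 for *AC166821.1* (adjusted p = 0.0472). Without the block neither passed (2.34, adjusted p = 0.131, and 3.19, adjusted p = 0.142), and QKO in low CHIR rests on 2 libraries. The cause of the difference was not tested. In the β-catenin table the same kind of difference passed with the replicate number as a block within the removal method, at 1.70 for *Six2* (adjusted p = 0.0166) and 2.86 for *AC166821.1* (0.00279) between Cre and no Cre, and at 1.98 for *AC166821.1* (0.0496) between *Ctnnb1* and GFP sgRNA. Without the block none of these 3 passed by limma (adjusted p of 0.166, 0.0584 and 0.413), and each group holds 2 libraries. The block within the method was added after the data were seen and rests on a pairing that the labels do not give. The cause was not tested.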

How the results depend on the processing

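*Six2*, *Six4*, *Eya1* and *AC166821.1* over 11 comparisons kept their direction and their side of the thresholds in 399 alternatives other than leaving out a library, gained a call in 13, lost one in 3 and changed sign uncalled in 1, and no called difference turned its sign in any alternative. At a log2 threshold of 1, *Six4* between no and low CHIR (−0.90) was no longer called. With only the own groups fitted, *Six2* (1.30, adjusted p = 0.104) and *Six4* (−1.17, 0.0839) lost their calls for Cre in high CHIR, and the Cas9 difference in CHIR response of *AC166821.1* was called (1.98, 0.00698). DESeq2 called the difference in CHIR response between Cre and no Cre of *Six2* (1.61, 0.0462) and *AC166821.1* (2.53, 0.00211), and between QKO and control of *Six2* (2.39, 0.000333) and *AC166821.1* (2.84, 0.00165). With no filter on low values that of *AC166821.1* between Cre and no Cre was called (2.86, 0.0468). With the replicate block it was called too (2.86, 0.0172), as were *Eya1* for QKO in high CHIR (0.90, 0.0283) and the QKO difference in CHIR response of *Six2* (2.41, 0.0473) and *AC166821.1* (3.31, 0.0472), while *AC166821.1* for QKO in low CHIR became −0.054. In the Tcf/Lef table the block changed, beside these, only *Eya1* between doses in QKO and *Six4* and *Six5* for QKO in high against control in low CHIR. The causes were not tested.

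In the β-catenin table the planned block, 1 number term over both removal methods, moved the genes called from 854 to 1442 for Cas9 in high CHIR, from 55 to 173 for Cre in low CHIR, from 128 to 215 between doses with *Ctnnb1* sgRNA, from 87 to 142 and 167 to 293 for the differences in CHIR response, from 107 to 215 and 157 to 348 for removed high against control low CHIR, from 104 to 260 for the mean removal in low CHIR and from 0 to 12 for Cas9 minus Cre. A replicate block within each method, added after the data were seen, called the difference in CHIR response of *Six2* (1.70, adjusted p = 0.0166) and *AC166821.1* (2.86, 0.00279) for Cre and of *AC166821.1* for Cas9 (1.98, 0.0496). It lost no call of the 8 genes. In the Tcf/Lef table the block moved them from 1 to 16 for QKO in low CHIR, from 404 to 1181 in high CHIR, from 403 to 952 between doses, from 20 to 136 for the difference in response and from 1082 to 2452 for QKO high against control low CHIR.

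Leaving out 1 library at a time, *Six4* between no and low CHIR ran from −1.02 to −0.80, and for removal in high CHIR from −1.50 to −1.12 with Cas9 and −1.52 to −0.81 with Cre. *Six2* for removal by Cre in high CHIR ran from 0.67 to 1.93, and by Cas9 and Cre in low CHIR from −0.33 to 0.13 and −0.82 to 0.015. *AC166821.1* for Cas9 ran from 1.83 to 2.06 in high CHIR and −0.18 to 0.11 in low CHIR, and for Cre in low CHIR from −0.013 to 0.59, where *Eya1* ran from −0.32 to 0.10. The Cre difference in CHIR response ran from 1.07 to 2.33 for *Six2*, −0.51 to 0.20 for *Six4* and 1.85 to 3.87 for *AC166821.1*, and that of QKO from 2.03 to 2.74 for *Six2* and 2.74 to 3.91 for *AC166821.1*. For QKO in high CHIR *Six2* ran from 1.33 to 1.82 and *Eya1* from 0.49 to 1.23, and in low CHIR *Six4* ran from −0.012 to 0.28 and *AC166821.1* from −0.12 to 0.25. A group left with 1 library was assumed to vary like the others.

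Counts of genes called moved by over 1.5 times in further fits. DESeq2 called 1784 genes against 865 between no and low CHIR, 30 against 9 and 1479 against 854 for Cas9 in low and high CHIR, 278 against 55 for Cre in low CHIR, 319 against 128 and 95 against 49 between doses with *Ctnnb1* sgRNA and Cre, 210 against 87 and 381 against 167 for their differences in response, 277 against 107 and 490 against 157 for removed high against control low CHIR, 332 against 104 for the mean removal in low CHIR and 21 against 0 for Cas9 minus Cre. In the Tcf/Lef table it called 22 against 1 and 859 against 404 for QKO in low and high CHIR, 888 against 403 between doses, 158 against 20 for the difference in response and 1898 against 1082 for QKO high against control low CHIR. With only the own groups fitted, 2038 genes were called between no and low CHIR, 0 for Cas9 and 14 for Cre in low CHIR, 853 against 1452 for Cre in high CHIR, 1925 against 1260 with GFP sgRNA and 773 against 1350 without Cre between doses, 201 with *Ctnnb1* sgRNA and 18 with Cre, 51 for the Cre difference in response, 163 and 54 for removed high against control low CHIR, and 0 for QKO in low CHIR. A log2 threshold of 1 left 499 between no and low CHIR, 2662 of 4070 between high and no CHIR, 1429 of 2546 for the mean removal in high CHIR and 1568 of 2372 between doses in QKO control. A pseudocount of 0.5 and TMM rescaling each left 0 for Cas9 in low CHIR, and no filter gave 4 for QKO in low CHIR. Groups of 2 limit the removal comparisons, and 4 reads limit *AC166821.1* in wild-type high CHIR.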
